A study of Mus musculus with 60 samples.

Results

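The Nrf2 antioxidant genes described here are 10 genes, Nfe2l2, Keap1, Nqo1, Hmox1, Gclc, Gclm, Txnrd1, Srxn1, Slc7a11 and Gpx2, in mouse cholangiocyte organoids. They were chosen by name, as the transcription factor Nrf2, its main inhibitor and 8 of its best known target genes. Earlier results of these data were known when they were chosen. The genes were found through their Ensembl identifiers among 23,440 genes in the table of culture conditions, 23,068 in that of bulk passages and 28,773 in that of single organoids. All 10 passed the low-count filter in each of the 3 tables. The study asked how the culture method, the passage number and the individual organoid shape gene expression, and measured it by 3′-end RNA-seq.

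All organoids were grown from bile duct cells of C57BL/6N mice that were 3 to 4 months of age. In the first experiment, 3 organoid cultures, each pooled from 2 to 4 mice, were grown both as Matrigel domes and in shaken suspension in 10% Matrigel, which gave 3 libraries for each condition. In the second, bulk RNA of Sets 1, 3 and 4, which the sample labels call organoid pools and the methods describe as cultures from 1 mouse each, was taken at passage 4 and again at passage 11, with 2 technical replicates that were summed here. In the third, single organoids were picked from suspension cultures of 4 sets, 1 mouse each, and the 35 organoids kept by the study were used: 8 of Set 1, 10 of Set 2, 5 of Set 3 and 12 of Set 4. Set 1 was picked at passage 11, Sets 2 and 3 at passage 3 and Set 4 at passage 4. The set, the mouse and the passage therefore cannot be told apart among single organoids, and P-values between sets measure the spread between organoids of 1 culture, not between mice.

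Nrf2, encoded by Nfe2l2, is the master regulator of the cellular defence against oxidants and electrophiles. In resting cells Keap1 binds Nrf2 and hands it to a ubiquitin ligase for degradation, and when reactive compounds modify Keap1, Nrf2 accumulates, pairs with small Maf proteins and binds antioxidant response elements of its target genes. These targets make glutathione, recycle thioredoxin and remove quinones and heme, and because much of this control acts on Nrf2 protein, the transcript of Nfe2l2 need not follow the activity of Nrf2.

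The core letters TGACNNNGC of such elements were searched on both strands of the RefSeq promoter windows of GRCm38.p6. The bases beside the core were not part of the search, so a match need not be such an element. The windows run from 250 bases before to 50 bases after each start. Of the 10 genes, 8 had at least 1 window, and Hmox1 and Gclc had no entry. The letters were found in 4 of these 8 genes, compared with 3,781 of 27,025 genes in the table and 12.4% of all 32,851 windows. The 4 sites are shown with 10 bases on each side, written 5′ to 3′ on the strand of the gene, with the motif or its reverse complement in capitals.
Nfe2l2: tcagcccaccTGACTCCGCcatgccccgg
Gclm: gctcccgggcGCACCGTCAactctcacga
Txnrd1: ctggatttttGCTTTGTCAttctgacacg
Srxn1: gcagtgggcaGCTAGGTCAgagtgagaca

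The Nfe2l2 site (chr2:75704885-75704913, gene on the minus strand) had the motif in the direction of the gene, 240 bases upstream of the start. In the Gclm site (chr3:122245413-122245441, plus strand), the Txnrd1 site (chr10:82859104-82859132, plus strand) and the Srxn1 site (chr2:152105542-152105570, plus strand) it lay on the opposite strand. Its distance to the start was 134 bases upstream for Gclm and 92 bases upstream for 1 of the 3 Txnrd1 windows, whereas in Srxn1 it lay 28 bases downstream of the start. None of the 4 contained the AP-1 letters TGACTCA, with which the motif can overlap. A match describes letters only, and genes without a match may carry them outside of the window.

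Values are given as CPM, the count of a gene per 1e6 counts of the library, scaled by the trimmed mean of M-values (TMM), which sets each library on a common scale. Because 3′-end libraries count transcript ends and the 3 tables were normalised separately, levels were compared between libraries of a table only. Total counts were 1,776,490 to 14,761,853 in domes and 3,837,619 to 12,089,655 in suspension, 1,486,347 to 5,532,630 in bulk libraries, with the lowest in Set 4 at passage 11, and 1,059,002 to 11,175,868 in single organoids. The cholangiocyte markers Epcam, Krt7, Krt19, Sox9, Spp1 and Cftr were detected in every library. The endothelial and mesenchymal markers found in the tables summed to at most 2.42 and 0.691 CPM. Among hepatocyte markers, Alb reached at most 4.96 CPM in cultures, 1.92 in bulk and 44.0 in single organoids, Apoa1 reached 159 CPM in a dome, and Ttr was at 216 CPM or more everywhere. In bulk RNA of cultures and organoids, fewer cells of a type and less RNA per cell cannot be told apart.

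Comparing domes with suspension addressed how the 10 genes differ between the 2 culture formats. By the methods, suspension cultures were also passaged at shorter intervals than domes. Matrix, shaking and passaging interval therefore cannot be told apart. Hmox1, Keap1 and Gclc were higher in domes, whereas Slc7a11 and Gpx2 were lower. Thus 5 of 10 genes were called at an adj. P-value below 0.05 (edgeR quasi-likelihood test, Benjamini-Hochberg over 12,699 genes), where 29.8% of all genes were called. By direction, 3 were higher, against 15% of all genes, and 2 lower, against 14.7%. Their median log2 fold-change was 0.33, compared with -0.04 for all genes.

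Of the regulators, Keap1, the adaptor that keeps Nrf2 low, lies on chromosome 9 from 21229730 to 21239361 and was at 25.7, 35.9 and 38.5 CPM in domes 1 to 3. In suspension it was at 12.4, 13.95 and 15.01 CPM. The lowest dome was well above the highest suspension culture, and the log2 fold-change was 1.24 ± 0.23 (SE, n = 3, edgeR adj. P-value 0.0047). Nfe2l2 (chromosome 2, 75675513 to 75704641) was at 70.6, 57.2 and 83.6 CPM in domes and at 96.6, 77.1 and 92.6 CPM in suspension. The groups overlapped, and the log2 fold-change of -0.33 ± 0.20 did not pass the test (edgeR adj. P-value 0.236).

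The genes of glutathione synthesis did not move together. Slc7a11 encodes the transport subunit of the cystine/glutamate antiporter, which brings in cystine, the limiting building block of glutathione. It was at 8.83, 11.7 and 15.4 CPM in domes and at 21.3, 28.6 and 29.9 CPM in suspension. All domes were below all suspension cultures, with a log2 fold-change of -1.22 ± 0.27 (SE, n = 3, edgeR adj. P-value 0.00919). Gclc, the catalytic subunit of glutamate-cysteine ligase, the rate-limiting enzyme of glutathione synthesis, was at 96.7, 52.8 and 62.1 CPM in domes and at 36.6, 41.9 and 50.2 CPM in suspension. The groups did not overlap, but dome 2 was close to the highest suspension culture. The log2 fold-change was 0.74 ± 0.25 (edgeR adj. P-value 0.049), and the call was lost without dome 1, at 0.42 (adj. P-value 0.173), and without dome 3 or any single suspension culture (adj. P-values 0.0568 to 0.168, edgeR). Gclm, the modifier subunit of the same enzyme, was between 138 and 196 CPM in domes and between 120 and 175 CPM in suspension, with a log2 fold-change of 0.02 ± 0.23.

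Gpx2, a glutathione peroxidase of epithelia that reduces hydroperoxides, was lower in domes. It was at 213, 210 and 179 CPM in domes and at 495, 504 and 485 CPM in suspension. The groups were far apart, with 2.46-fold less in domes (log2 fold-change -1.30 ± 0.19, n = 3, edgeR adj. P-value 0.00186).

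Hmox1, heme oxygenase 1, which degrades heme to biliverdin, iron and carbon monoxide, differed most of the 10 genes. It was at 15.3, 49.9 and 31.9 CPM in domes, from 201, 68 and 58 counts, and at 2.95, 2.84 and 2.14 CPM in suspension, from 14, 12 and 31 counts. Every dome was above every suspension culture, and the difference was 11.9-fold (log2 fold-change 3.58 ± 0.45, n = 3, edgeR adj. P-value 0.00117). Macrophage markers were also high in some domes: of 5 markers 4 were in the table, and the summed CPM of these, Adgre1, Cd68, Ptprc and Csf1r, was 6.93, 93.1 and 29.1 in domes 1 to 3 and 3.37, 9.22 and 6.75 in suspension. Of these, 2 passed the filter and 1 was called higher in domes. The sum consisted mostly of Cd68, which reached 90.2 CPM, while Adgre1 was at 0 in 5 of 6 libraries, Ptprc reached at most 1.47 CPM and Csf1r at most 3.24 CPM. The marker sum of dome 1 was within the range of the suspension cultures, and its Hmox1 level was above that of all of them. Over the 3 domes, Hmox1 and the marker sum had the same order, lowest in dome 1 and highest in dome 2. Hepatocyte markers summed to 270 to 790 CPM in domes and 243 to 617 CPM in suspension, and of 4 tested 1 was called higher (Apoa1) and 1 lower. These sums were mostly Ttr, at a median of 365 CPM over both conditions. The part of these markers in the Hmox1 difference was not tested.

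Nqo1, a quinone reductase and the classic reporter of Nrf2, was at 3.27, 2.93 and 2.75 CPM in domes and at 0.842, 2.13 and 1.03 CPM in suspension. The groups did not overlap, yet these values rest on 4 to 43 counts per library, and the log2 fold-change of 1.29 ± 0.45 missed the threshold (edgeR adj. P-value 0.0523), while limma-voom called it (adj. P-value 0.0216). Srxn1, which repairs over-oxidised peroxiredoxins, was at 49.5, 46.9 and 28.6 CPM in domes and at 21.7, 28.1 and 30.7 CPM in suspension. Dome 3 fell within the range of the suspension cultures, and the log2 fold-change of 0.64 ± 0.25 was not called (edgeR adj. P-value 0.0765), but it was without dome 3 (0.83, adj. P-value 0.0239). Txnrd1, which reduces thioredoxin with NADPH, was between 48.4 and 57.0 CPM in domes and between 49.4 and 68.8 CPM in suspension. In total, 6 of 10 genes had groups without overlap, compared with 47.4% of all genes.

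**Figure D1:**
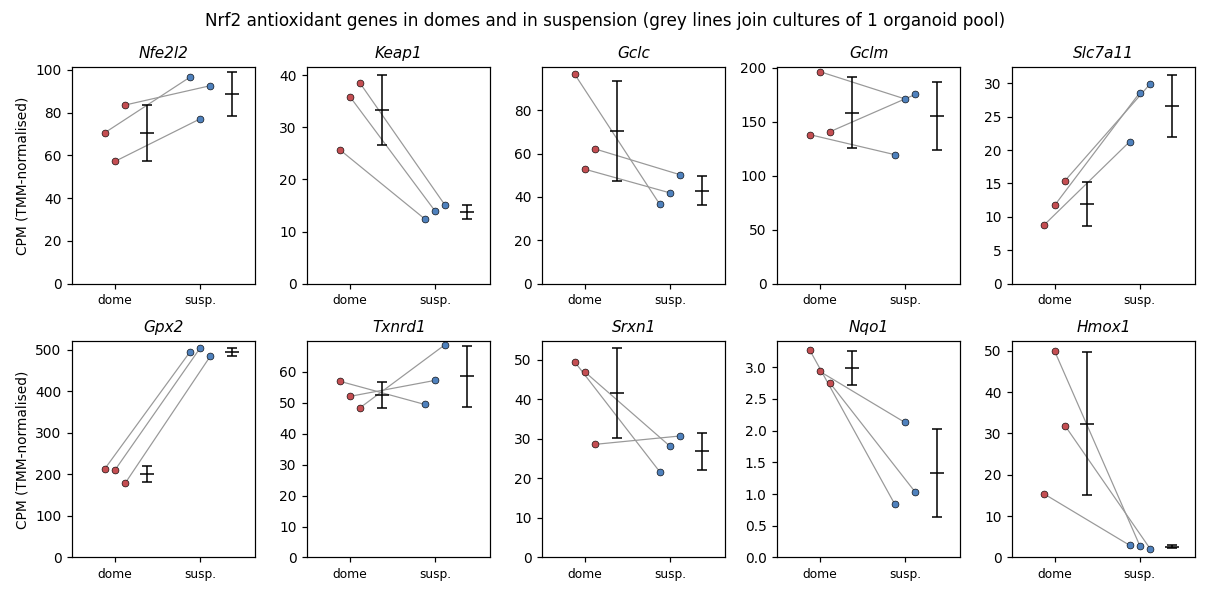
CPM (linear axis from 0) of each of the 10 genes in 3 dome and 3 suspension (susp.) cultures; points are libraries, grey lines join cultures with the same pool number, and the bar beside each group is the mean ± SD. Gpx2 domes sit between 179 and 213 CPM, below suspension cultures between 485 and 504 CPM, and Hmox1 domes between 15.3 and 49.9 CPM, above suspension cultures between 2.14 and 2.95 CPM.

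The wider Nrf2 network was described by 7 lists of related genes, also chosen with earlier results of these data known. Counts of these lists are to be read against the 15% of all genes that were called higher and the 14.7% called lower. Of 12 detoxification and export genes tested, 8 were higher in domes, led by Cbr3, a carbonyl reductase (log2 fold-change 2.51 ± 0.54, edgeR adj. P-value 0.00828), and Abcc3, a bile duct exporter of conjugates (2.03 ± 0.27, adj. P-value 0.00138). Among 8 heme and iron genes, 2 were higher, namely Blvrb, a biliverdin reductase (log2 fold-change 2.04), and Fth1, the ferritin heavy chain (1.17), and 1 was lower, Tfrc, the transferrin receptor that takes up iron (-1.22). Of 9 glutathione genes 3 were higher, including the glutathione synthase Gss (log2 fold-change 1.38) and the lipid peroxidase Gpx4 (1.11). Of 6 NADPH-producing genes 3 were higher, with Tkt at 1.30 and Pgd at 0.69 on the log2 scale. Prdx5 (1.83) and Txnip (1.19) were the 2 of 10 thioredoxin and peroxiredoxin genes that were higher. Of 11 partners and regulators 3 were higher, with Osgin1 (1.35) and Maff (1.20) leading, and 1 was lower, the kinase gene Gsk3b (-0.83). Of 3 superoxide dismutase and catalase genes none was called by edgeR, with 1 at an unadjusted P-value below 0.05. Beside all of these, the summed CPM of 6 proliferation markers was 125 to 250 in domes and 500 to 591 in suspension, with all 6 called lower in domes, and the mitochondrial share of counts was 1.64 to 2.02% and 3.72 to 4.02%. Their part in the results was not tested.

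Bulk organoids of the same sets at both passages addressed how these genes change with time in culture. Slc7a11, Gclc, Gclm, Srxn1 and Txnrd1 were lower at passage 11, and Gpx2 was the only member that was higher. Thus 6 of 10 were called (edgeR quasi-likelihood test, Benjamini-Hochberg over 13,738 genes), where 20.3% of all genes were called. The 5 lower genes stand against 10.1% of all genes called lower, and the 1 higher gene against 10.1% called higher. Their median log2 fold-change was -1.04, compared with -0.05 for all genes.

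Slc7a11, on chromosome 3 from 49892526 to 50443614, was at 212, 132 and 90.3 CPM in Sets 1, 3 and 4 at passage 4. At passage 11 it was at 21.1, 17.9 and 12.1 CPM. Every early culture was above every late one, and the difference was 8.13-fold (log2 fold-change -3.02 ± 0.31, SE, n = 3, edgeR adj. P-value 0.000469). Within Sets 1, 3 and 4 the log2 differences were -3.39, -2.88 and -2.95.

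Gclc, on chromosome 9 from 77754535 to 77794485, was at 161, 99.4 and 92.6 CPM at passage 4 and at 28.1, 40.2 and 27.3 CPM at passage 11. No late culture reached an early one, and the fall was 3.62-fold (log2 fold-change -1.86 ± 0.24, n = 3, edgeR adj. P-value 0.00122). Its partner Gclm (chromosome 3, 122245557 to 122270732) was at 614, 322 and 310 CPM and at 202, 157 and 230 CPM. The groups did not overlap and the log2 fold-change was -1.09 ± 0.26 (edgeR adj. P-value 0.0168). Set 1 held the highest early value and the largest difference within a set, -1.64 on the log2 scale, compared with -1.05 in Set 3 and -0.47 in Set 4, and without Set 3 at passage 11 the call was lost (edgeR adj. P-value 0.0705).

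Srxn1 and Txnrd1 were also lower. Srxn1 (chromosome 2, 152105516 to 152111376) was at 73.6, 49.3 and 47.9 CPM at passage 4 and at 21.1, 28.0 and 32.4 CPM at passage 11. The groups did not overlap, with a log2 fold-change of -1.09 ± 0.22 (n = 3, edgeR adj. P-value 0.00782). In Set 1 at passage 4 the 2 technical replicates were at 48.3 and 92.9 CPM, from 78 and 206 counts. Txnrd1 (chromosome 10, 82833951 to 82897712) was at 121, 81.4 and 81.5 CPM and at 54.3, 60.8 and 68.7 CPM. The log2 fold-change of -0.64 ± 0.18 passed the test (edgeR adj. P-value 0.0346), but the call was lost without Set 1 at passage 4 (log2 fold-change -0.43, adj. P-value 0.0828), Set 3 at passage 4 (0.0519), Set 1 at passage 11 (0.103) or Set 3 at passage 11 (0.0952).

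Gpx2 (chromosome 12, 76792333 to 76795554) went the other way. It was at 833, 871 and 1071 CPM at passage 4 and at 1783, 1628 and 2180 CPM at passage 11. All late cultures were above all early ones, with a 2.01-fold difference (log2 fold-change 1.01 ± 0.16, n = 3, edgeR adj. P-value 0.00357) and log2 differences of 1.07, 0.89 and 1.00 within Sets 1, 3 and 4.

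Hmox1 (chromosome 8, 75093621 to 75100589) was at 50.8, 27.3 and 22.7 CPM at passage 4 and at 24.2, 12.3 and 11.4 CPM at passage 11. Set 1 was the highest at both passages, so the groups overlapped, while the log2 differences within Sets 1, 3 and 4 were -1.11, -1.15 and -1.02. Without regard to the set, the log2 fold-change was -1.003 ± 0.35 (edgeR adj. P-value 0.066), and it was called without Set 4 at passage 4 (-1.23, adj. P-value 0.0459) or Set 1 at passage 11 (-1.46, adj. P-value 0.028). With the set as a replicate block, it was -1.08 (edgeR adj. P-value 0.00247), so that 7 of 10 genes were called in the paired fit. The macrophage marker sum was 18.4, 4.61 and 5.28 CPM in Sets 1, 3 and 4 at passage 4 and 4.49, 2.58 and 4.45 CPM at passage 11, and hepatocyte markers summed to 276 to 690 CPM and 750 to 1101 CPM, with 2 of 4 tested called higher at passage 11. The hepatocyte sum was mostly Ttr, at a median of 673 CPM in bulk, while Apoa1 reached 85.7 CPM and Fah 8.95 CPM. The part of the macrophage and hepatocyte markers in the results was not tested.

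Nqo1 (chromosome 8, 107388225 to 107403206) was at 17.6, 5.57 and 7.92 CPM at passage 4 and at 2.92, 4.57 and 7.00 CPM at passage 11. Set 1 alone differed widely, by -2.61 on the log2 scale, against -0.26 in Set 3 and -0.28 in Set 4, and the log2 fold-change of -1.19 ± 0.47 did not pass the test (edgeR adj. P-value 0.0973). The regulators themselves were not called. Nfe2l2 was at 84.3, 87.9 and 91.1 CPM at passage 4 and at 93.4, 97.8 and 119 CPM at passage 11, without overlap but with a log2 fold-change of 0.23 ± 0.14 (edgeR adj. P-value 0.278). Keap1 was between 25.1 and 33.8 CPM at passage 4 and between 21.6 and 30.0 CPM at passage 11 (edgeR adj. P-value 0.505). In total, 7 of 10 genes had groups without overlap, compared with 39.5% of all genes.

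**Figure D2:**
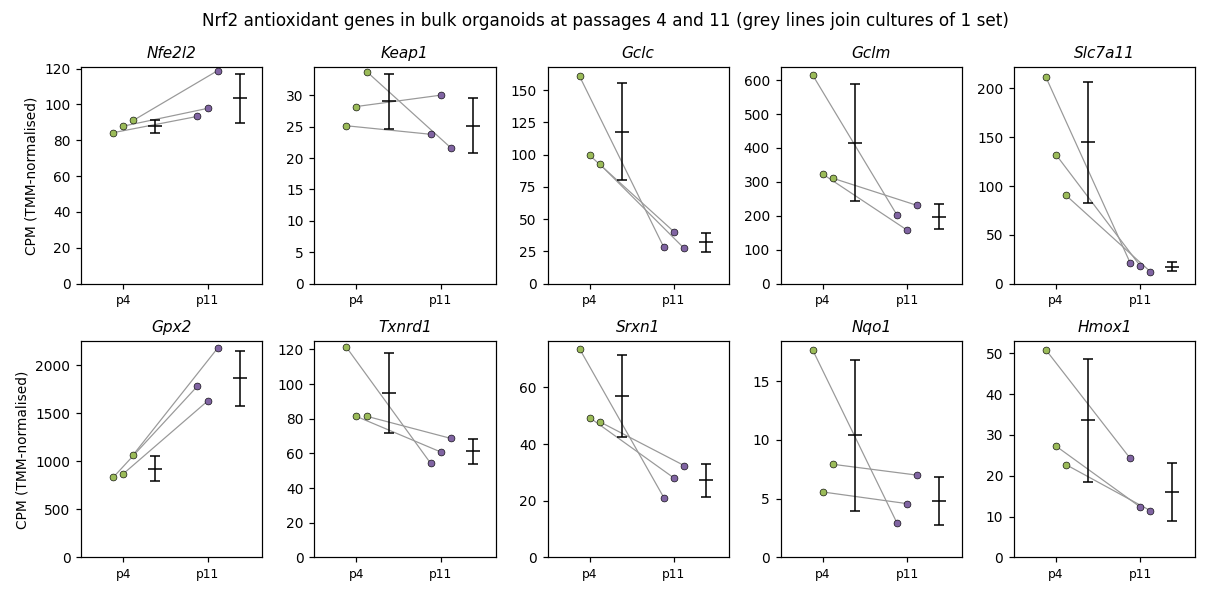
CPM (linear axis from 0) of the 10 genes in bulk organoids of Sets 1, 3 and 4 at the early (p4) and late (p11) passage; points are cultures with technical replicates summed, grey lines join the passages of a set, and the bar beside each group is the mean ± SD. Slc7a11 drops from between 90.3 and 212 CPM to between 12.1 and 21.1 CPM in all 3 sets, and Gpx2 rises from between 833 and 1071 CPM to between 1628 and 2180 CPM.

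In the wider lists, 5 of 11 partners and regulators were lower at passage 11, where 10.1% of all genes were called in each direction. The largest differences were those of Sqstm1, which encodes the autophagy receptor p62 that competes with Nrf2 for Keap1 (log2 fold-change -2.43 ± 0.30, edgeR adj. P-value 0.001), and Bach1, a repressor at antioxidant response elements (-1.75 ± 0.38, adj. P-value 0.011). Of 9 glutathione genes, 1 was lower, namely Slc3a2, the heavy chain that pairs with Slc7a11 (log2 fold-change -1.25), and 1 was higher, the glutaredoxin gene Glrx (0.99). Of 10 thioredoxin and peroxiredoxin genes 3 were higher, including Prdx6 (0.92) and Txn1 (0.82), and 1 was lower, Txnip (-0.60). Of 12 detoxification and export genes 4 were lower, with the exporters Abcc1 (-1.86) and Abcc4 (-1.72) leading. Of 8 heme and iron genes, Blvra was higher (0.83) and Fth1 lower (-0.83), and of 6 NADPH-producing genes Tkt was higher (0.53). Of 3 superoxide dismutase and catalase genes none was called by edgeR, with 1 at an unadjusted P-value below 0.05. The summed CPM of 6 proliferation markers was 230 to 259 at passage 4 and 504 to 675 at passage 11. Of these 6 markers, 5 were called higher. The paper's text gives the opposite direction, with proliferation terms among genes lower at passage 11. The legend of its enrichment plots assigns the panel cited for these terms to genes higher at passage 11. Which reading holds was not tested, and all bulk directions here follow the passage in the sample labels. The mitochondrial share was 1.99 to 2.63% at passage 4 and 0.895 to 1.71% at passage 11. The part of these markers and of the mitochondrial share in the results was not tested.

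Single organoids were compared next, to describe how the 10 genes differ between sets and between organoids of a set. Gclc, Slc7a11 and Gpx2 differed most between sets. Set 1 had 3 genes called against Set 2 (14.3% of 13,927 genes were called, edgeR quasi-likelihood test with Benjamini-Hochberg adjustment over all 6 comparisons of sets), 5 against Set 3 (9.43%) and 5 against Set 4 (20.0%). By direction, 1 gene was higher (7.08% of all genes) and 2 lower (7.19%) than in Set 2, none higher (4.30%; Nfe2l2 and Gclc, 2 genes, at an unadjusted P-value below 0.05, and 0 with limma-voom or DESeq2) and 5 lower (5.13%) than in Set 3, and 2 higher (12.4%) and 3 lower (7.60%) than in Set 4. Gpx2 was the only one of the 10 that was called in the same direction in all 3, as were 1.52% of all genes lower in Set 1 and 2.41% higher.

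Gclc was at 81.9 to 219 CPM in Set 1 (median 119), 22.5 to 72.7 in Set 2 (median 57.9), 40.4 to 128 in Set 3 (median 89.2) and 28.4 to 58.5 in Set 4 (median 37.3). Every Set 1 organoid was above every organoid of Sets 2 and 4, while Set 3 overlapped with all of them. The means were 144 ± 53.6 CPM (SD, n = 8), 51.4 ± 17.0 (n = 10), 91.3 ± 37.5 (n = 5) and 39.8 ± 9.21 (n = 12). Set 1 was 2.77-fold above Set 2 (edgeR adj. P-value 5.61e-06) and 3.60-fold above Set 4 (2.55e-08), but its log2 fold-change of 0.66 ± 0.26 against Set 3 did not pass the test (0.0928). Set 3 was above Set 4 by 1.19 ± 0.23 and Set 2 was below Set 3 by a log2 fold-change of -0.82 ± 0.24, and the latter call was lost in the fit of these 2 sets only (edgeR adj. P-value 0.186) and without organoid 5 or 6 of Set 3 (0.0954 and 0.0974).

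Slc7a11 was at 3.08 to 16.6 CPM in Set 1 (median 10.9), 29.9 to 112 in Set 2 (median 36.0), 22.3 to 147 in Set 3 (median 87.9) and 6.91 to 24.0 in Set 4 (median 10.8). Sets 1 and 4 lay low and overlapped, and Sets 2 and 3 lay high and were spread widely. Set 1 did not overlap with Set 2, where the log2 fold-change was -2.35 ± 0.35 (edgeR adj. P-value 7.61e-06), nor with Set 3, where it was -3.00 ± 0.39 (5.42e-07). Set 4 was lower than Set 2 by 1.95 ± 0.30 and lower than Set 3 by 2.60 ± 0.34 on the log2 scale, whereas Sets 1 and 4 differed by -0.40 ± 0.34 (edgeR adj. P-value 0.48), and Sets 2 and 3 were not called. Within Set 3, 2 organoids were at 22.3 and 24.4 CPM and the other 3 at 87.9 CPM or more.

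Gpx2 was at 367 to 691 CPM in Set 1, 548 to 1227 in Set 2, 742 to 1134 in Set 3 and 757 to 2353 in Set 4. Set 1 lay below every organoid of Sets 3 and 4 but overlapped with Set 2. The means ran from 554 ± 114 CPM in Set 1 (SD, n = 8) over 862 ± 246 in Set 2 and 927 ± 160 in Set 3 to 1299 ± 460 in Set 4. Log2 fold-changes of Set 1 were -0.64 ± 0.19 against Set 2, -0.74 ± 0.22 against Set 3 and -1.23 ± 0.19 against Set 4 (edgeR adj. P-values 0.0209, 0.0217 and 1.05e-05). Without organoid 5 of Set 3 the comparison with Set 3 missed the threshold (edgeR adj. P-value 0.0649), and with all 42 organoids that with Set 2 did (0.0952). Sets 2 and 3 were not called, nor were Sets 3 and 4, while Set 2 was below Set 4 (log2 fold-change -0.59 ± 0.17, edgeR adj. P-value 0.0171).

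Gclm was highest in Set 3. It was at 202 to 482 CPM there (mean 337 ± 119, SD, n = 5), compared with means of 192 ± 41.1 in Set 1, 191 ± 56.2 in Set 2 and 201 ± 41.3 in Set 4, and all sets overlapped. Set 3 was called against each of them (log2 fold-changes of 0.74 to 0.81 in size, edgeR adj. P-values 0.00469 to 0.00767), and no other pair of sets was. Without organoid 6 of Set 3 the calls against Sets 1 and 4 were lost (edgeR adj. P-values 0.0501 and 0.0607). With all 42 organoids the calls against Sets 1, 2 and 4 were all lost (edgeR adj. P-values 0.0526, 0.0712 and 0.196). The call against Set 2 was also lost in the fit of Sets 2 and 3 only (0.116), and that against Set 4 with the replicate block (0.0718).

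Hmox1 was at 2.13 to 6.72 CPM in Set 1 and 5.93 to 12.5 in Set 4, and the sets overlapped, with means of 3.97 ± 1.62, 6.91 ± 3.34, 7.43 ± 2.25 and 9.53 ± 2.26 CPM in Sets 1 to 4 (SD, n = 8, 10, 5 and 12). Set 1 was lower than Set 4 by a log2 fold-change of -1.23 ± 0.23 (edgeR adj. P-value 0.000214) and lower than Set 3 by -0.85 ± 0.28 (0.0388), from 3 to 71 counts per organoid. The latter call was lost without organoid 3, 5 or 6 of Set 3 (edgeR adj. P-values 0.0548 to 0.155). Against Set 2 the log2 fold-change of Set 1 was -0.68 ± 0.24 and just missed the threshold (edgeR adj. P-value 0.0572). Over the alternatives by edgeR, limma-voom or DESeq2, its adj. P-value ran from 0.0412 to 0.251. The macrophage markers summed to 1.80 to 3.47 CPM in Set 1, 3.80 to 4.76 in Set 3 and 0.742 to 6.67 in Set 4, with 1 of 2 tested called lower in Set 1 than in Set 3, and their part was not tested.

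Nqo1 was near the limit of these libraries, with 2 to 41 counts per organoid. Its mean was 1.40 ± 0.747 CPM in Set 1 (SD, n = 8), 2.96 ± 2.04 in Set 2, 4.83 ± 5.25 in Set 3 and 3.67 ± 2.29 in Set 4. Set 1 was called lower than Set 3 (log2 fold-change -1.85 ± 0.53, edgeR adj. P-value 0.0169) and Set 4 (-1.41 ± 0.46, adj. P-value 0.0367), and all sets overlapped. Both calls were lost with limma-voom (adj. P-values 0.0544 and 0.0581). They were also lost after thinning to the smallest library (edgeR adj. P-values 0.120 and 0.101) and with the replicate block (0.0575 and 0.139). In Set 3, 1 organoid at 14.1 CPM decided the value, since without it the log2 fold-change to Set 3 was -0.83 (edgeR adj. P-value 0.37).

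Nfe2l2 was at 188 to 598 CPM in Set 1 (mean 395 ± 130, SD, n = 8) and at means of 271 ± 91.6, 280 ± 82.4 and 234 ± 44.5 CPM in Sets 2, 3 and 4. All sets overlapped, and only Set 1 against Set 4 was called (log2 fold-change 0.76 ± 0.18, edgeR adj. P-value 0.0047). Keap1 had almost the same mean in the 4 sets, 25.2 ± 2.63, 25.1 ± 6.49, 25.6 ± 7.24 and 24.1 ± 5.00 CPM, and was called in no comparison of sets, with 0 of 6 at an unadjusted P-value below 0.05 and none with limma-voom or DESeq2. Txnrd1, with means of 122 to 172 CPM, and Srxn1, with means of 17.2 to 25.4 CPM, were not called in any comparison of sets either, with 1 of 6 and 2 of 6 at an unadjusted P-value below 0.05.

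**Figure D3:**
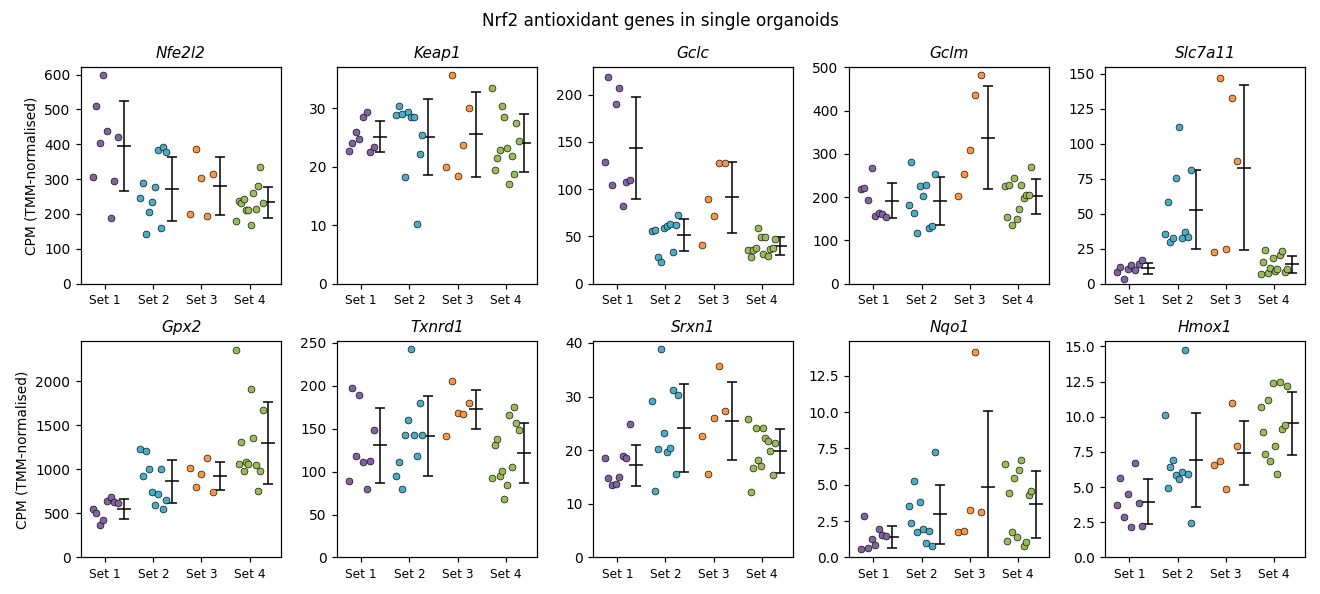
CPM (linear axis from 0) of the 10 genes in 8, 10, 5 and 12 single organoids of Sets 1 to 4; points are organoids and the bar beside each set is the mean ± SD, cut off at 0 for Nqo1 in Set 3. Gclc of Set 1 sits at 81.9 CPM or more, above all organoids of Sets 2 and 4, and Slc7a11 sits at 24.0 CPM or less in all organoids of Sets 1 and 4.

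Among the other sets, 2 genes were called for Set 2 against Set 3 (3.93% of all genes), 2 for Set 2 against Set 4 (12.4%) and 3 for Set 3 against Set 4 (11.6%), which are the differences of Gclc, Gclm, Slc7a11 and Gpx2 given above. By direction, Set 2 had 0 higher (2.05% of all genes; 0 at an unadjusted P-value below 0.05, 0 with limma-voom and 0 with DESeq2) and 2 lower (1.88%) than Set 3, and 1 higher (7.02%) and 1 lower (5.35%) than Set 4, and Set 3 had 3 higher (7.89%) and 0 lower (3.67%; Gpx2 alone at an unadjusted P-value below 0.05, and 0 with limma-voom or DESeq2) than Set 4. Sets without overlap were found for 2 genes each in the comparisons of Set 1 with Set 2 (1.11% of all genes), Set 3 (3.69%) and Set 4 (1.07%) and for 1 gene, Slc7a11, in that of Set 2 with Set 4 (0.201%), but for none in those of Set 2 with Set 3 (0.553%) and of Set 3 with Set 4 (2.07%). Set beside the bulk cultures, Slc7a11 was lower at passage 11 in bulk and lower in Set 1 than in Sets 2 and 3. Against Set 4, picked at passage 4, Slc7a11 of Set 1 was not called (log2 fold-change -0.40, edgeR adj. P-value 0.48). Gclc was lower at passage 11 in bulk but higher in Set 1 than in Sets 2 and 4, and Gpx2 was higher at passage 11 in bulk but lower in Set 1 than in the other 3 sets. The single organoids of Set 1 came from a suspension culture and were compared with other mice. The bulk cultures came from the same sets at both passages, and their culture format is not given here. Bulk directions follow the passage in the sample labels, with the open reading given above for the proliferation markers. The bulk and single organoid values were not tested against each other.

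**Figure D4:**
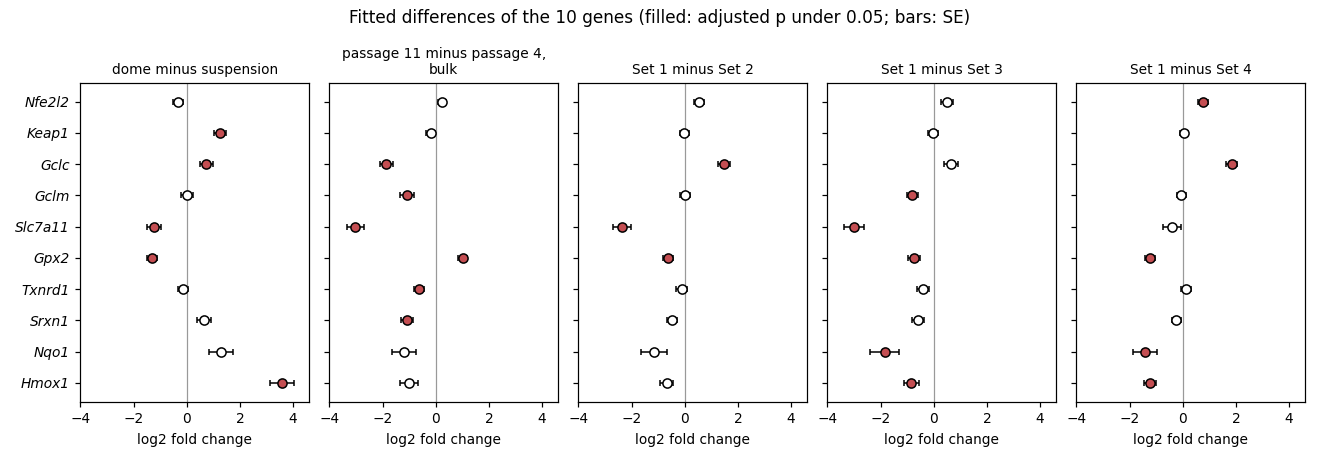
Log2 fold-changes of the 10 genes in 5 comparisons, with bars for the SE and filled points for an edgeR adj. P-value below 0.05. Hmox1 is at 3.58 for domes, Slc7a11 at -3.02 for passage 11 and at -3.00 for Set 1 minus Set 3, and Gclc and Gpx2 have opposite signs in bulk passage 11 minus 4 and in Set 1 minus Set 4.

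In the wider lists, 4, 4 and 5 of 12 detoxification and export genes were called higher in Set 1 than in Sets 2, 3 and 4, where 7.08, 4.30 and 12.4% of all genes were called higher, and 0 were called lower. Abcc3, Gstm1, Gsta4 and Ugdh were higher in all 3 comparisons, and the means of their 3 log2 fold-changes were 1.18 and 0.93 for the first 2 of these. Of the 11 partners and regulators 2, 1 and 2 were higher than in Sets 2, 3 and 4, and Osgin1, a target of Nrf2 that limits growth, was higher in all 3 (mean log2 fold-change 0.96), and of the 8 heme and iron genes Tfrc was lower in all 3 (-0.82). The 10 glutathione genes had 4, 2 and 1 called lower in Set 1 against Sets 2, 3 and 4. Of all genes, 7.19, 5.13 and 7.60% were called lower in these comparisons. The NADPH-producing genes had 2 of 6 higher against Set 2 and 2 against Set 4, and the thioredoxin and peroxiredoxin genes 1 higher and 1 lower of 10 against Set 2 and 1 lower against Set 4. Of 3 superoxide dismutase and catalase genes, 1 was higher than in Set 2. Beside these, 3, 0 and 4 of 6 proliferation markers were called lower in Set 1 than in Sets 2, 3 and 4. Of 4 hepatocyte markers tested, 1, 1 and 2 were called higher in Set 1, with median log2 fold-changes of 1.00, 1.53 and 1.52. The 8 hepatocyte markers summed to 520 to 2397 CPM in Set 1, 541 to 1523 in Set 2, 433 to 680 in Set 3 and 495 to 2640 in Set 4. These sums were mostly Ttr, at a median of 899 CPM over the organoids. The part of these markers in the results was not tested.

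The share of the variance of log2 CPM that lay between sets separated the 10 genes. It was 68.9% for Gclc, 68.2% for Slc7a11, 58.2% for Gpx2 and 49.8% for Hmox1, and 35.5% or less for the other 6, down to 1.01% for Keap1, compared with a median of 19.1% over all genes tested. Within sets, Slc7a11 and Nqo1 varied more than genes of like abundance, with a dispersion 2.77 and 2.57 times that of the trend, whereas Keap1 varied less, at 0.515 times. The median of all genes was 0.856. By this ratio Slc7a11, Nqo1 and Keap1 stood at percentiles 97.1, 96.5 and 16.6 of all genes tested. The value of Nqo1 rests on 2 to 41 counts per organoid and includes the Set 3 organoid at 14.1 CPM.

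Correlations between organoids were computed after subtracting the set means, over 35 organoids and 45 pairs, with 100,000 permutations within sets and Benjamini-Hochberg adjustment over the pairs. Of 45 pairs, 24 were positive, the median r was 0.08, and 6 passed, of which 4 were positive and 2 negative. The highest was that of Nfe2l2 and Txnrd1, with r = 0.672 (permutation P-value 1e-05, the smallest that these permutations can give, adjusted 0.00045) and rho = 0.669 (permutation P-value 1e-05, adjusted 0.00045). It was 0.581 without the 2 organoids farthest from the median of Nfe2l2, and 0.877, 0.532 and 0.738 within Sets 1, 2 and 4. Gclc and Gclm, the subunits of 1 enzyme, had r = 0.65 (permutation P-value 0.00016, adjusted 0.0024; rho = 0.597, P-value 0.00066, adjusted 0.0099), or 0.54 without 2 organoids and 0.489, 0.711 and 0.4 within Sets 1, 2 and 4. Nfe2l2 and Gclc had r = 0.603 (permutation P-value 0.00079, adjusted 0.00889; rho = 0.582, P-value 0.00129, adjusted 0.0145) and 0.508 without 2 organoids, but within Set 4 r was only 0.105, compared with 0.788 in Set 1 and 0.818 in Set 2.

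Gpx2 ran against Nfe2l2. This pair had the lowest r, -0.642 (permutation P-value 4e-05, adjusted 0.0009; rho = -0.67, P-value 3e-05, adjusted 0.000675), which was -0.609 without 2 organoids and -0.581, -0.755 and -0.677 within Sets 1, 2 and 4. The next lowest was Txnrd1 and Gpx2, at r = -0.517 (permutation P-value 0.00318, adjusted 0.0238; rho = -0.506, P-value 0.0042, adjusted 0.0315), -0.556 without 2 organoids and -0.464, -0.872 and -0.276 within Sets 1, 2 and 4. The fourth positive pair that passed, named after its values were seen, was Nqo1 and Gpx2 (r = 0.513, permutation P-value 0.00249, adjusted 0.0224; rho = 0.501, P-value 0.00378, adjusted 0.0315), at 0.597 without 2 organoids and 0.318, 0.326 and 0.699 within Sets 1, 2 and 4. After thinning all libraries to the smallest total, 3 pairs passed. Over the alternatives, the adjusted permutation P-value reached 0.129 for Nfe2l2 and Gclc, 0.0969 for Txnrd1 and Gpx2 and 0.414 for Nqo1 and Gpx2. For the other pairs that passed it was at most 0.037.

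**Figure D5:**
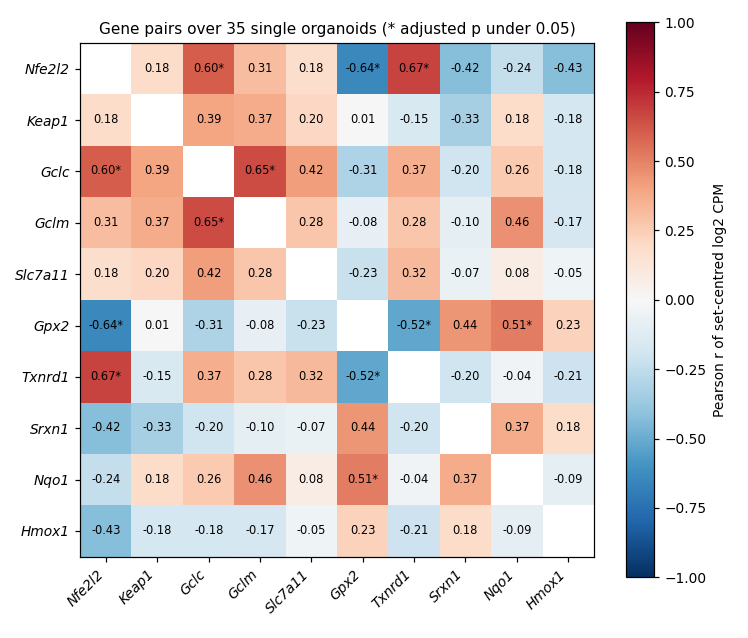
Pearson r of set-centred log2 CPM for the 45 pairs of the 10 genes over 35 single organoids, from -1 (blue) to 1 (red), with an asterisk where the adjusted permutation P-value was below 0.05. The values run from -0.64 for Nfe2l2 and Gpx2 to 0.67 for Nfe2l2 and Txnrd1.

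Library total and mitochondrial share were set against the 10 genes in the same way. Of 20 relations none passed by Pearson's r, and 3 had an unadjusted permutation P-value below 0.05. Keap1 and library total had r = 0.413 (permutation P-value 0.00417, adjusted 0.0834; rho = 0.484, P-value 0.00227, adjusted 0.0454) and 0.526 without 2 organoids, or 0.179, 0.739 and 0.533 within Sets 1, 2 and 4. Txnrd1 and library total had r = -0.463 (permutation P-value 0.0106, adjusted 0.106; rho = -0.484, P-value 0.00701, adjusted 0.0701) and -0.406 without 2 organoids, or -0.362, -0.163 and -0.756 within Sets 1, 2 and 4. The mitochondrial share had r = 0.377 with Slc7a11 (permutation P-value 0.0331, adjusted 0.221; rho = 0.365, P-value 0.0401, adjusted 0.267) and 0.331 without 2 organoids. Their part in the pair correlations was not tested otherwise.

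Among 6,227 other genes whose average log2 CPM reached 4, those whose set-centred levels were most like the mean of the 10 standardised genes included Vcp (r = 0.659), Terf2 (0.613), Hmgn5 (0.597) and Ccdc34 (0.594), as a description over 35 organoids that share the libraries and their depth. Vcp had r = 0.88, 0.626 and 0.248 within Sets 1, 2 and 4.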

How the data were processed

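The authors deposited gene counts of 3 RNA-seq experiments. Libraries with 3′ ends and unique molecular identifiers were processed with zUMIs, using STAR, SAMtools 1.9 and featureCounts, on GRCm38 (mm10) with Ensembl annotation; the submitters' processing notes also name edgeR 3.28.1 and limma 3.42.2 under R 3.6.3. Libraries were down-sampled by library size within zUMIs. Whether reads or identifiers were counted in the tables was not stated in the sources read. The input of single organoids was equalised by mRNA amount.

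From these counts, genes were kept by filterByExpr (minimum count 3), scaled by TMM and compared by the quasi-likelihood test of edgeR 4.0.16 (R 4.3.3), with Benjamini-Hochberg adjustment at 0.05. The 4 sets were fitted together and adjusted over 6 comparisons. SEs were derived from the F statistic. Correlations used log2 CPM with a prior count of 2. A gene is called where its adjusted P-value is below 0.05. The edgeR fits and the permutation test of correlations were tried on simulated data, for single organoids without the adjustment over 6 comparisons. The other steps were not tried in this way.

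The 10 genes and all lists were chosen with earlier results of these data known. Of each wider list, at most 2 called genes per direction with the largest fold-change were named; for single organoids they had to be called in the same direction against Sets 2, 3 and 4. Of 45 pairs, the 3 highest and 2 lowest are given.

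Replicate numbers pair cultures from 1 pool and bulk libraries from the same set (1 mouse per the methods, a pool per the labels). Deviations of same-numbered libraries correlated with r = 0.153, 0.165 and 0.191 in the culture experiment and 0.11, 0.0282 and 0.108 in Sets 1, 3 and 4 in bulk. Single organoids share only a number. Chi-square per degree of freedom between replicates was at least 4.61 in cultures, 4.88 in bulk and 2.19 among organoids, and 1.08 to 2.55 between technical replicates.

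Alternatives were size factors by RLE, only genes at 0 removed, a minimum count of 10, limma-voom 3.58.1, DESeq2 1.42.0, libraries thinned to the smallest, replicate blocks, leave-one-out fits (among organoids for Set 3 only), all 42 organoids, other adjustments and a prior count of 0.5. Figures were drawn with matplotlib 3.10.9. Promoter sequences are from RefSeq (GRCm38.p6) and gene positions from GENCODE (GRCm38). A marker gene and a gene of like pattern are not reported here.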

Additional observations from a re-analysis of the deposited data

Results flagged for a closer look

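Of 30 sets of values (10 genes in Sets 1, 2 and 3), 2 held an organoid far from the others, judged by its gap to the nearest value over the range of the set. Chance flags about 1 in 20 such groups. Nqo1 was at 14.1 CPM in organoid 5 of Set 3, while the next highest organoid of Set 3 was at 3.25 CPM. Srxn1 was at 24.9 CPM in organoid 8 of Set 1, while the next highest was at 18.8 CPM.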

How the results depend on the processing

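All 10 genes kept their direction wherever they were called, and over all alternatives 1106 values of single genes stayed on their side of the threshold, 44 lost the call and 19 gained it; a gene that was called in neither fit was counted as unchanged. In domes, 5 genes were called (4 to 5 when a replicate was left out), and in bulk 6 (4 to 7). With the replicate block, 5 were called in domes, 7 in bulk through Hmox1, and the block changed no other call there. Among single organoids, which share only a number, the block left 3 of 5 for Set 1 against Set 3, 3 of 5 for Set 1 against Set 4, 1 of 2 for Set 2 against Set 3 and 2 of 3 for Set 3 against Set 4, and for Set 1 against Set 2 it lost Gpx2 and gained Srxn1. Over all genes the number of calls with the block was 1584, compared with 2780, for Set 1 against Set 4, 897, compared with 1722, for Set 2 against Set 4 and 731, compared with 1610, for Set 3 against Set 4. For Set 1 against Set 3, 3 were called without the filter, after thinning or with all 42 organoids, and 2 to 5 when an organoid of Set 3 was left out. For Set 2 against Set 3, 0 were called with all 42 organoids (limma-voom and DESeq2 on the 35 kept both calls) or in a fit of the 2 sets only (61 of all genes, compared with 548), 1 when adjusted within the comparison and 1 to 2 when an organoid was left out. With all 42 organoids 1 was called for Set 2 against Set 4, and adjusted within the comparison 5 for Set 1 against Set 2.

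Of 45 pairs of genes, 6 passed as reported, 20 with all 42 organoids, 3 after thinning and 3 in Sets 2 to 4 only. With all 42 organoids, 1 relation with depth passed (Keap1 and library total) and the median share of variance between sets moved from 32.5 to 18.5%. Over all genes, 1745 were called in bulk after thinning, compared with 2784, and 1893 to 2209 in domes when a suspension culture was left out, compared with 3779. The cause of these changes was not tested. Low counts limit Nqo1 and Hmox1, with 4 or 5 counts of Nqo1 in 3 of 6 cultures, and Set 4 at passage 11 was the shallowest bulk library. At a minimum count of 10, Nqo1 was not tested in the culture table.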

Other observations

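The technical replicates of bulk Set 1 at passage 4 differed in Srxn1 (48.3 and 92.9 CPM) but lay close in the other members, for example at 224 and 205 CPM of Slc7a11 and 612 and 623 CPM of Gclm. Chac1, a glutathione-degrading enzyme, was named after its values were seen. It was lower in Set 1 than in Set 2 (mean 2.58 and 11.5 CPM, log2 fold-change -2.20 ± 0.39, edgeR adj. P-value 0.00014) and than in Set 3 (10.8 CPM), and higher in Sets 2 and 3 than in Set 4 (3.59 CPM) (log2 fold-changes 1.70 ± 0.34 and 1.61 ± 0.40). In bulk it was not called (edgeR adj. P-value 0.404).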
